A study of Arabidopsis thaliana with 9 samples.

Results

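The gene set described here is the *COP1*, *SPA*, *DET1* and *HY5* group of light regulators, 9 genes picked by locus identifier from the 33602 genes of the deposited tables: *COP1* (AT2G32950), *SPA1* (AT2G46340), *SPA2* (AT4G11110), *SPA3* (AT3G15354), *SPA4* (AT1G53090), *DET1* (AT4G10180), *HY5* (AT5G11260), *HYH* (AT3G17609) and *LAF1* (AT4G25560). All 9 identifiers were found, and 8 of the 9 reached the expression level required for testing, the exception being *LAF1*. RNA was sequenced from whole 4-d-old *Arabidopsis thaliana* seedlings in 9 libraries, 3 biological replicates each for wild-type Col-0, the *BBX11* mutant *bbx11-1* and the *PIF4* mutant *pif4-2*. Both mutants are in the Col-0 ecotype, and each gene is represented by 1 mutant allele. All seedlings were raised on sucrose-containing Murashige and Skoog medium and grown in constant red light of 94 μmol/m2/s. The labels describe the Col-0 libraries as the control for *BBX11*, and the same 3 libraries were the wild type for *pif4-2*, so both comparisons with Col-0 share their controls. BBX11 is a B-box zinc finger protein that promotes photomorphogenesis, and PIF4 is a bHLH transcription factor that promotes hypocotyl elongation and is degraded after phytochrome B is activated by red light. The comparisons ask whether loss of either factor goes with another transcript level of the core repressors and activators of photomorphogenesis.

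In darkness COP1, a RING-type E3 ubiquitin ligase, works with the SPA proteins, which carry a kinase-like domain and WD40 repeats, to mark light-promoting transcription factors for degradation by the proteasome. DET1 forms a separate complex with COP10 and DDB1, and both assemblies associate with CUL4. In the light, activated phytochromes and cryptochromes inhibit the COP1/SPA ligase, and the transcription factors it targets accumulate: HY5, a bZIP protein that binds ACGT-containing elements, its close homolog HYH, and the MYB protein LAF1. These proteins are controlled strongly at the level of stability, which transcript measurements do not report.

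The sequences upstream of the genes are shown first because PIF4 binds G-boxes and the related PBE-box, and HY5 binds G-boxes and related ACGT elements. The 200 bases before the annotated start of each gene were read from the RefSeq TAIR10.1 genome and searched on both strands for the G-box CACGTG, the PBE-box CACATG and the T/G-box CACGTT. Among 26711 protein-coding genes, 5.74% held a G-box in a window of this length, 9.04% a PBE-box and 6.36% a T/G-box. None of the 9 windows held a G-box. The *HY5* window (chr5:3595074-3595273, minus strand) held 1 PBE-box, which begins 138 bases before the start, and 1 T/G-box, which begins 9 bases before it. The *COP1* window (chr2:13977681-13977880, plus strand) held 1 T/G-box beginning 45 bases before the start, and the *SPA3* window held 1 beginning 30 bases before its start. No match to these motifs was found in the windows of *SPA1*, *SPA2*, *SPA4*, *DET1*, *HYH* and *LAF1*. Other ACGT-containing elements were not searched for, and the windows of *SPA1*, *SPA2*, *HYH* and *LAF1* hold the letters ACGT in other contexts. The *SPA3* window also holds these letters outside its T/G-box. The windows of *HY5*, of its homolog *HYH* (chr3:6023644-6023843, plus strand) and of *COP1* are printed 5′ to 3′ so that the homologs and the ligase can be compared, with the motif matches in capitals. A match describes letters in this window and is not evidence of binding.
HY5: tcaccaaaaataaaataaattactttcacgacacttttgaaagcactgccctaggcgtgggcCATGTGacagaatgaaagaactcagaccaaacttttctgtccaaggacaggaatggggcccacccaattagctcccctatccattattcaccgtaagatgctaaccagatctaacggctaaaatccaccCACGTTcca
HYH: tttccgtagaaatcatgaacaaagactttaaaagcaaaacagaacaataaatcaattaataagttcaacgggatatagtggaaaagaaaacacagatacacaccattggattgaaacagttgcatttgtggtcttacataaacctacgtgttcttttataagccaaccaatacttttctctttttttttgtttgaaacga
COP1: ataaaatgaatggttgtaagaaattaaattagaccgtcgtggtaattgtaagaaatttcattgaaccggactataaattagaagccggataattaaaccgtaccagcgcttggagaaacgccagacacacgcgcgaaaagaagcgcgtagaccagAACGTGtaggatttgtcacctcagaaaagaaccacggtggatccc

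The 9 genes lie on all 5 nuclear chromosomes of TAIR10.1. *COP1* (chromosome 2, 13977881 to 13983609, plus strand) has 13 exonic blocks, and *SPA1* (chromosome 2, 19022154 to 19027528, minus strand) and *SPA2* (chromosome 4, 6771605 to 6777225, plus strand) have 8 each. *SPA3* (chromosome 3, 5169095 to 5173105, minus strand) has 6 exonic blocks, *SPA4* (chromosome 1, 19783185 to 19786902, plus strand) has 7 and *DET1* (chromosome 4, 6346411 to 6349314, plus strand) has 10. *HY5* (chromosome 5, 3593335 to 3595073, minus strand) has 4 exonic blocks, *HYH* (chromosome 3, 6023844 to 6024710, plus strand) has 2 and *LAF1* (chromosome 4, 13052503 to 13053742, plus strand) has 3. Exons of *SPA3*, *SPA4* and *LAF1* overlap exons of a neighbour on the opposite strand (AT3G15350, AT1G53100 and AT4G25570). Since the strand setting of the counting is not given in the sources used here, reads of these 3 genes may include reads of the neighbour.

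The values are FPKM, which scales the fragments of a gene to its length and to the size of the library, so levels can be ordered between genes. Green-tissue markers were abundant in every library, with *RBCS1A* at 17117 to 21570 FPKM and *CAB1* at 11296 to 18088 FPKM, the root markers *PIN2* and *COBL9* were at 1.19 to 9.59 FPKM, the seed storage genes *CRA1* and *CRU3* at 0.88 to 36.1 FPKM, and the floral genes *AG* and *AP3* at 0.15 FPKM or less. None of the 6 of these 8 markers that were tested passed the test in any comparison. The spacing of the lowest values of short genes corresponded to 16.2 to 22.0 M reads per library. By genotype this was 16.2 to 17.6 M in Col-0, 17.2 to 19.25 M in *bbx11-1* and 18.55 to 22.0 M in *pif4-2*. Every *pif4-2* library was thus deeper than every Col-0 library, and an effect of depth was not tested. On the first principal component (32.3% of the variance), the *pif4-2* libraries lay at 20.8 to 23.2. All Col-0 and *bbx11-1* libraries lay at -30.0 to -0.55 on it. Replicate 1 of Col-0 and that of *bbx11-1* stood apart from their groups there (-30.0 and -22.1). On the second component they were at 17.7 and 14.8, and the other replicates of these genotypes at -17.0 to -13.3. Values without both are given where they changed a call. Any separate preparation of *pif4-2* could not be told apart from genotype and was not tested. Among the mutated genes, *PIF4* fell by 0.82 on the log2 scale in *pif4-2* (limma with Benjamini-Hochberg, adjusted p = 0.00121). *BBX11* was at 15.7, 16.4 and 78.2 FPKM in Col-0 and at 10.7, 9.39 and 7.66 FPKM in *bbx11-1* (log2 difference -1.52, limma with Benjamini-Hochberg, adjusted p = 0.231). Every *bbx11-1* library was thus below every Col-0 library for *BBX11*, but Col-0 replicate 3 was far above all others, and without it the log2 difference was -0.77. The exons of *BBX11* overlap a non-coding RNA gene on the same strand (AT2G47895), so its values may include reads of that gene.

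**Figure D1:**
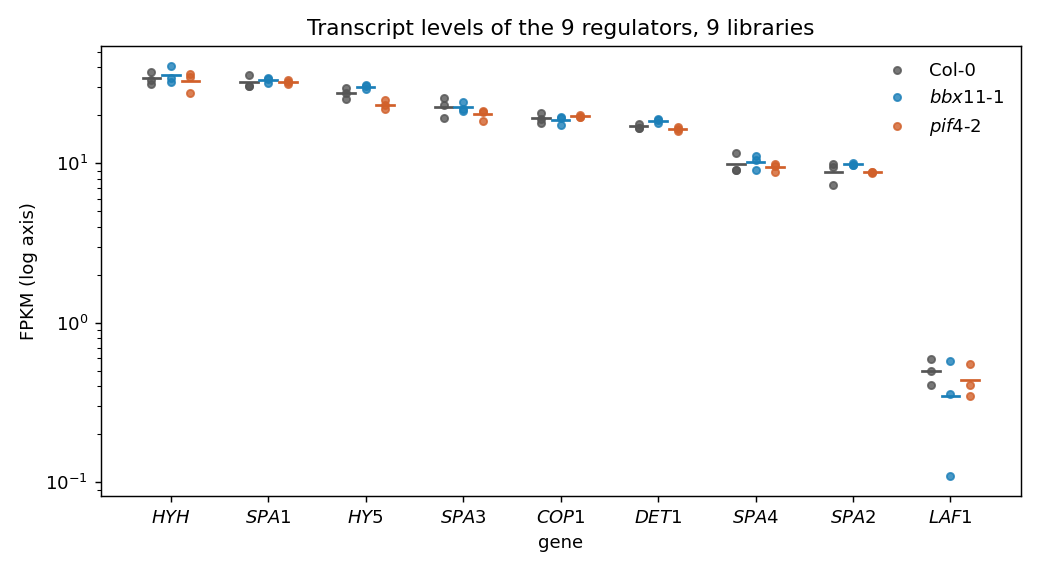
FPKM of the 9 regulators on a log axis, with 1 point per library and a bar at the mean of each genotype (n = 3; Col-0 grey, *bbx11-1* blue, *pif4-2* orange). The genes keep the same order of means in all 3 genotypes, from *HYH* (34.1 FPKM in Col-0) to *SPA2* (8.86 FPKM), and *LAF1* lies below 0.6 FPKM in all 9 libraries.

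The order of mean levels was the same in Col-0, *bbx11-1* and *pif4-2*: *HYH*, *SPA1*, *HY5*, *SPA3*, *COP1*, *DET1*, *SPA4*, *SPA2* and *LAF1*. Over the 9 libraries, *HYH* averaged 34.2 FPKM, higher than 81.8% of the 19169 tested genes, and *SPA2*, the lowest of the tested members, averaged 9.16 FPKM, higher than 46.2%. The mean of the median tested gene was 10.4 FPKM. Several neighbours in the order did not differ beyond their spread. In all 3 genotypes the ranges of *HYH* and *SPA1* overlapped, as did those of *SPA4* and *SPA2*. The ranges of *SPA3* and *COP1* overlapped in Col-0 and *pif4-2*, those of *HY5* and *SPA3* in Col-0, and those of *COP1* and *DET1* in *bbx11-1*. *SPA1* stood above *HY5*, and *DET1* above *SPA4*, in all 9 libraries. The spread within genotypes was 0.04 on the log2 scale for *DET1*, and 99.3% of the tested genes were more variable. It was largest among the tested members for *HYH*, at 0.18, against a median of 0.14 over all tested genes.

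*COP1*, the catalytic partner of the complex, was at 19.1, 17.9 and 20.7 FPKM in Col-0, at 19.2, 19.5 and 17.4 FPKM in *bbx11-1* and at 20.2, 19.4 and 19.4 FPKM in *pif4-2*. The 9 values stayed within 17.4 to 20.7 FPKM and the 3 groups overlapped. The means were 19.2 ± 1.41, 18.7 ± 1.12 and 19.7 ± 0.47 FPKM (SD, n = 3) in Col-0, *bbx11-1* and *pif4-2*. The log2 difference from Col-0 was -0.04 in *bbx11-1* (95% interval -0.22 to 0.14, limma with Benjamini-Hochberg, adjusted p = 0.926) and 0.03 in *pif4-2* (-0.14 to 0.21, adjusted p = 0.895). As percentages of the Col-0 level, these intervals run from -13.9% to 10.1% in *bbx11-1* and from -9.38% to 15.8% in *pif4-2*. Log2 differences throughout are of log2(FPKM + 0.5), and percentages are taken from them.

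*SPA1*, the member of the SPA family first identified as a repressor of phytochrome A signalling, was at 30.4, 30.4 and 35.8 FPKM in Col-0. It was at 31.7, 33.9 and 34.4 FPKM in *bbx11-1* and at 31.4, 32.4 and 33.3 FPKM in *pif4-2*. All *SPA1* values of the mutants lay inside the Col-0 range. The log2 difference from Col-0 was 0.05 in *bbx11-1* (95% interval -0.12 to 0.23, limma with Benjamini-Hochberg, adjusted p = 0.886) and 0.01 in *pif4-2* (-0.17 to 0.19). *SPA3*, which acts mainly in light-grown seedlings and adult plants together with *SPA4*, was at 23.2, 19.3 and 25.5 FPKM in Col-0, at 24.3, 21.8 and 21.2 FPKM in *bbx11-1* and at 21.1, 18.5 and 21.3 FPKM in *pif4-2*. The groups overlapped, and Col-0 itself covered most of the *SPA3* range. The *SPA3* log2 difference was -0.01 in *bbx11-1* (95% interval -0.24 to 0.23, limma with Benjamini-Hochberg, adjusted p = 0.990) and -0.15 in *pif4-2* (-0.39 to 0.08, adjusted p = 0.553).

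*SPA4* was at 9.04, 9.03 and 11.7 FPKM in Col-0, at 10.5, 9.12 and 11.1 FPKM in *bbx11-1* and at 9.67, 8.78 and 9.85 FPKM in *pif4-2*. The groups overlapped, with log2 differences from Col-0 of 0.05 in *bbx11-1* (95% interval -0.21 to 0.31, limma with Benjamini-Hochberg, adjusted p = 0.935) and -0.06 in *pif4-2* (-0.32 to 0.20, adjusted p = 0.869). *SPA2*, which acts mainly in dark-grown seedlings, was at 9.42, 7.30 and 9.86 FPKM in Col-0, at 9.69, 9.77 and 10.1 FPKM in *bbx11-1* and at 8.79, 8.71 and 8.84 FPKM in *pif4-2*. Col-0 replicate 2 was the lowest of the 9 *SPA2* values, and every *bbx11-1* library was above every *pif4-2* library. The *SPA2* log2 difference was 0.16 between *bbx11-1* and Col-0 (95% interval -0.08 to 0.39, limma with Benjamini-Hochberg, adjusted p = 0.677) and 0.16 between *bbx11-1* and *pif4-2* (-0.08 to 0.39, adjusted p = 0.541). Between *pif4-2* and Col-0 it was -0.00 (-0.24 to 0.23), with a sign that depends on scaling (0.02 after quantile normalization).

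**Figure D2:**
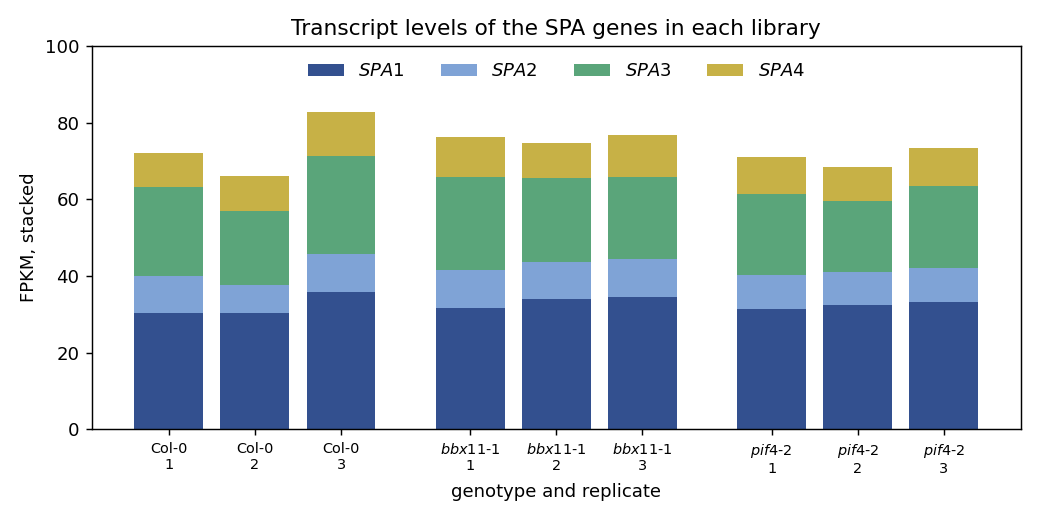
FPKM of *SPA1*, *SPA2*, *SPA3* and *SPA4* stacked for each of the 9 libraries, with the y axis starting at 0. The total lies between 66.0 FPKM (Col-0 replicate 2) and 82.8 FPKM (Col-0 replicate 3), and *SPA1* supplies the largest part in every library.

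The 4 *SPA* transcripts summed to 73.7 ± 8.51 FPKM in Col-0, 75.9 ± 1.16 in *bbx11-1* and 70.9 ± 2.44 in *pif4-2* (SD, n = 3). Their shares of that sum varied little among the 9 libraries. *SPA1* made up 41.7% to 47.3%, *SPA3* 27.1% to 32.2%, *SPA4* 12.2% to 14.4% and *SPA2* 11.1% to 13.1%, and for each gene the ranges of the 3 genotypes overlapped. Per *COP1* FPKM there were 3.83 ± 0.16, 4.07 ± 0.30 and 3.61 ± 0.15 FPKM of *SPA* transcripts (SD, n = 3) in Col-0, *bbx11-1* and *pif4-2*. Every *bbx11-1* value of this ratio (3.83 to 4.41) exceeded every *pif4-2* value (3.51 to 3.78). An exact permutation test of 3 libraries against 3 cannot give p below 0.1, so no test of a ratio could pass by that test and the ratios are given as values, with no other test run.

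*DET1* was at 16.7, 16.8 and 17.8 FPKM in Col-0, at 18.0, 18.6 and 18.9 FPKM in *bbx11-1* and at 16.8, 16.0 and 16.4 FPKM in *pif4-2*. All *bbx11-1* libraries were above all 6 others, while *pif4-2* and Col-0 overlapped. The *DET1* log2 difference was 0.11 between *bbx11-1* and Col-0 (SE 0.07, 95% interval -0.04 to 0.27, limma with Benjamini-Hochberg, adjusted p = 0.638) and -0.06 between *pif4-2* and Col-0 (-0.21 to 0.10, adjusted p = 0.776). Between *bbx11-1* and *pif4-2* it was 0.17 (0.01 to 0.32, adjusted p = 0.292). The interval of the last contrast lies above 0 before adjustment, and after adjustment over 19169 genes none of the 3 contrasts passed. The SE of *DET1* was the smallest of the 8 tested members but close to those of *COP1* and *HY5* (0.08 each). Relative to Col-0 its interval for *bbx11-1* runs from -2.92% to 20.2%.

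*HY5*, the central activator of the group, differed most between the mutants. It was at 29.8, 27.5 and 25.5 FPKM in Col-0, at 30.5, 29.1 and 31.1 FPKM in *bbx11-1* and at 24.8, 21.9 and 23.1 FPKM in *pif4-2*. The 3 *pif4-2* libraries were the lowest of the 9, and the *bbx11-1* libraries overlapped the upper end of Col-0. The means were 27.6 ± 2.19, 30.2 ± 0.98 and 23.3 ± 1.44 FPKM (SD, n = 3) in Col-0, *bbx11-1* and *pif4-2*. *HY5* was 29.4% higher in *bbx11-1* than in *pif4-2*, a log2 difference of 0.37 (SE 0.08, 95% interval 0.19 to 0.55, limma with Benjamini-Hochberg, adjusted p = 0.0396). Neither mutant passed the test against Col-0. In *pif4-2* the log2 difference was -0.24 (SE 0.08, 95% interval -0.42 to -0.06, unadjusted p = 0.0131, limma with Benjamini-Hochberg, adjusted p = 0.145), and in *bbx11-1* it was 0.13 (SE 0.08, -0.05 to 0.31, adjusted p = 0.624).

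**Figure D3:**
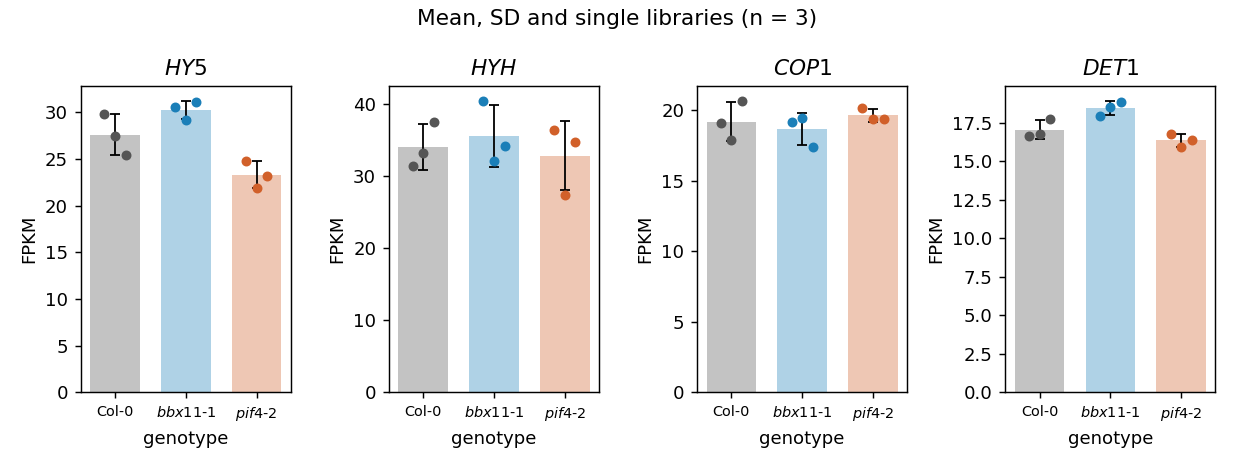
FPKM of *HY5*, *HYH*, *COP1* and *DET1* in the 3 genotypes, with bars for the mean, error bars for the SD (n = 3) and a point for each library, on axes that start at 0. All 3 *pif4-2* points of *HY5* (21.9 to 24.8 FPKM) lie below the Col-0 and *bbx11-1* points (25.5 to 31.1 FPKM), whereas the *HYH* and *COP1* points of the 3 genotypes overlap.

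In the same contrast every *bbx11-1* library (28.8 to 36.1 FPKM) exceeded every *pif4-2* library (14.97 to 23.9 FPKM) for the seed storage marker *CRA1*, which did not pass the test (log2 difference 0.81, limma with Benjamini-Hochberg, adjusted p = 0.109), while *CRU3* overlapped between the mutants, and their part in the *HY5* difference was not tested. The call for *HY5* between the mutants lies close to the threshold, although its size moved little. The log2 difference stayed between 0.33 and 0.42 when each of the 9 libraries was left out in turn, and the limma adjusted p with Benjamini-Hochberg adjustment ranged from 0.0231 to 0.160. It was above 0.05 without any 1 of the 3 *bbx11-1* libraries (0.0855, 0.0815 and 0.117 for replicates 1, 2 and 3), without any 1 of the 3 *pif4-2* libraries (0.0858, 0.160 and 0.154) and without Col-0 replicate 2 (0.0509), and it was below 0.05 only without Col-0 replicate 1 or 3. It was also above 0.05 without a filter on low values, after median-of-ratios or quantile scaling and without the intensity trend (0.0602 to 0.0730). Without replicate 1 of Col-0 and of *bbx11-1* together, the log2 difference was 0.36 and the adjusted p 0.0320.

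*HYH*, the closest homolog of *HY5*, was at 31.4, 33.2 and 37.6 FPKM in Col-0, at 40.5, 32.1 and 34.2 FPKM in *bbx11-1* and at 36.4, 27.4 and 34.8 FPKM in *pif4-2*. It had the highest single value of the set in *bbx11-1* replicate 1, and the groups overlapped. Its log2 difference was 0.06 between *bbx11-1* and Col-0 (95% interval -0.21 to 0.33, limma with Benjamini-Hochberg, adjusted p = 0.925), -0.06 between *pif4-2* and Col-0 (-0.33 to 0.21, adjusted p = 0.883) and 0.12 between the mutants (-0.15 to 0.39, adjusted p = 0.717). The *HYH* interval between *pif4-2* and Col-0 includes the difference of *HY5* in the same comparison (-0.24), and a difference in response between the homologs was not tested. The ratio of *HY5* to *HYH* was 0.82 ± 0.14 in Col-0, 0.86 ± 0.09 in *bbx11-1* and 0.71 ± 0.07 in *pif4-2* (SD, n = 3), with overlapping groups. The ratio of *HY5* to *COP1*, the activator to the ligase, was 1.56, 1.54 and 1.23 in Col-0, 1.59, 1.495 and 1.78 in *bbx11-1* and 1.23, 1.13 and 1.19 in *pif4-2*. The *pif4-2* libraries had the 3 lowest values of the *HY5* to *COP1* ratio, and Col-0 and *bbx11-1* overlapped.

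*LAF1*, a MYB activator of phytochrome A responses, was barely detected, at 0.59, 0.41 and 0.50 FPKM in Col-0, 0.36, 0.11 and 0.58 FPKM in *bbx11-1* and 0.41, 0.55 and 0.35 FPKM in *pif4-2*. All 3 groups overlapped. No genotype mean of *LAF1* reached the 1 FPKM needed for testing, and in a fit without the filter (28422 genes) its log2 difference from Col-0 was -0.27 in *bbx11-1* and -0.10 in *pif4-2* (limma with Benjamini-Hochberg, adjusted p = 0.783 and 0.898). No difference of *LAF1* was called, and a fall would be hard to detect at this level, where the added 0.5 FPKM is as large as the values.

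**Figure D4:**
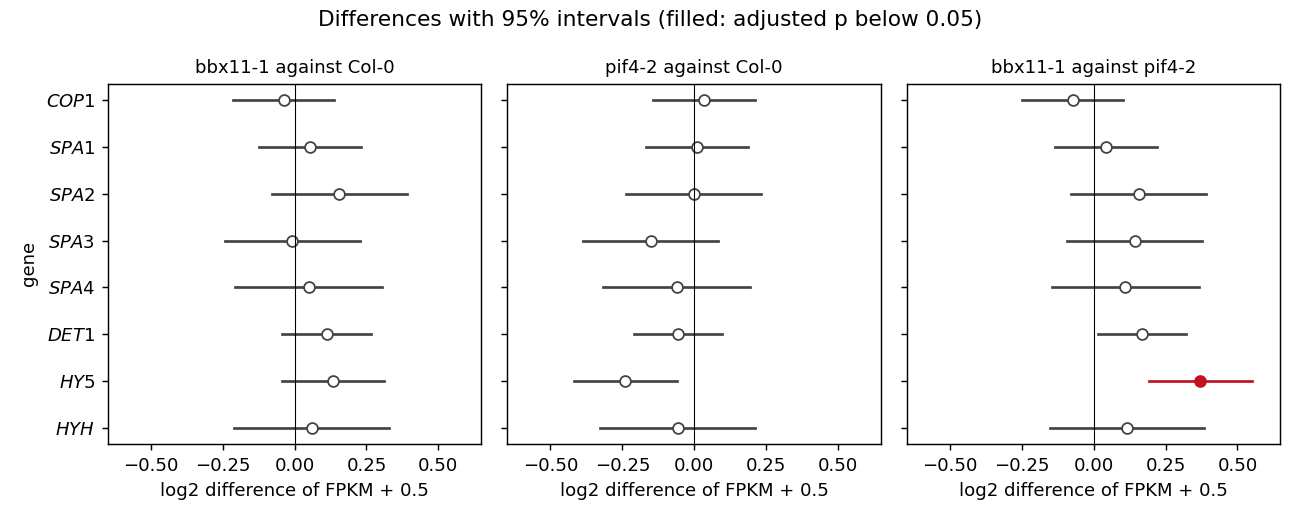
Log2 differences of FPKM + 0.5 for the 8 tested regulators in the 3 comparisons, with 95% intervals from the limma fit over 9 libraries and a line at 0. Only *HY5* in *bbx11-1* against *pif4-2* (0.37, 0.19 to 0.55) is filled as below an adjusted p of 0.05, and 1 other interval lies clear of 0 in that panel (*DET1*, 0.01 to 0.32) and 1 in the middle panel (*HY5*, -0.42 to -0.06).

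Counted over the set, 0 of the 8 tested members passed an adjusted p of 0.05 (limma, Benjamini-Hochberg) between *bbx11-1* and Col-0, where 0.443% of the 19169 tested genes did (0.809% with the replicate number as a block, again with 0 of 8), and 0 of 8 had an unadjusted p under 0.05 against 10.7% of all genes. In *pif4-2* against Col-0 the count was also 0 of 8, where 4.84% of all genes passed, and 1 of 8 (*HY5*) had an unadjusted p under 0.05 against 16.6%. In *bbx11-1* against *pif4-2* it was 1 of 8 (*HY5*), where 2.32% of all genes passed, and 2 of 8 (*HY5* and *DET1*) had an unadjusted p under 0.05 against 14.9%. With a fold of at least 2 required beside the adjusted p, 0 of 8 members passed in any comparison, against 0.146%, 1.13% and 0.636% of all tested genes. The groups did not overlap, in the higher direction, for 1 of 8 members between *bbx11-1* and Col-0 (*DET1*, background 6.78%) and for 3 of 8 between *bbx11-1* and *pif4-2* (*HY5*, *DET1* and *SPA2*, background 13.5%), and in the lower direction for 1 of 8 between *pif4-2* and Col-0 (*HY5*, background 12.1%). The median log2 difference of the 8 tested members was 0.06, -0.06 and 0.13 in these 3 comparisons, beside 0.00, -0.02 and 0.02 over all tested genes. In bulk RNA, fewer cells expressing a gene and less RNA per cell cannot be told apart.

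The genes of the machinery around the ligase had no call, and at their number the shares of called genes overall (0.443%, 4.84% and 2.32% in the 3 comparisons) would give few or none. The 6 tested genes of the CUL4 core and the COP10-DDB1-DET1 complex (*CUL4*, *RBX1*, *DDB1A*, *DDB1B*, *COP10* and *DDA1*) and the 10 tested COP9 signalosome genes, whose complex removes the NEDD8 modification from cullins, had 0 calls in each of the 3 comparisons (limma, Benjamini-Hochberg), with 1 of the 16 at an unadjusted p under 0.05 in *bbx11-1* against *pif4-2*, against 14.9% of all tested genes, and 0 in either comparison with Col-0. That gene was *DDA1*, which encodes a substrate adaptor of the CUL4 ligase (log2 difference -0.32, adjusted p = 0.201). *CUL4*, the scaffold, was at 31.1 to 39.6 FPKM over the 9 libraries, and *CSN2*, the highest signalosome transcript in Col-0, at 29.2 to 32.8 FPKM. The median log2 difference of the signalosome genes was -0.07 in *bbx11-1* and 0.01 in *pif4-2* against Col-0.

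Of 10 photoreceptors and UV-B repressors that act on COP1/SPA, 1 passed the test, between the mutants, where 2.32% of all tested genes did. *PHYA*, the far-red and weak-light phytochrome, was at 43.0, 52.4 and 48.5 FPKM in Col-0, 53.9, 57.9 and 61.2 FPKM in *bbx11-1* and 37.6, 40.7 and 38.5 FPKM in *pif4-2*. The 3 genotypes did not overlap for *PHYA*, with *bbx11-1* highest and *pif4-2* lowest. It was 0.56 higher on the log2 scale in *bbx11-1* than in *pif4-2* (SE 0.09, limma with Benjamini-Hochberg, adjusted p = 0.00737). Against Col-0 the difference was -0.29 in *pif4-2* (adjusted p = 0.0873, and 0.0130 without replicate 1 of both Col-0 and *bbx11-1*) and 0.27 in *bbx11-1* (adjusted p = 0.268). *PHYB*, the main red-light receptor, was at 19.0 to 24.0 FPKM in all 9 libraries and *CRY1* at 66.4 to 80.6 FPKM, both without a call. In each comparison with Col-0, 1 of the 10 (*PHYA*) had an unadjusted p under 0.05, near the share of all tested genes (10.7% in *bbx11-1* and 16.6% in *pif4-2*).

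Among other proteins that COP1 and the SPA proteins target, 8 of 12 genes were tested, and *HFR1* had the largest difference of the 8 in *pif4-2*. *HFR1*, an atypical bHLH protein that forms inactive dimers with PIFs, was at 6.30, 7.42 and 7.60 FPKM in Col-0, 6.85, 8.73 and 9.82 FPKM in *bbx11-1* and 2.42, 2.06 and 1.65 FPKM in *pif4-2*. Every *pif4-2* library was below all 6 others. *HFR1* fell by 1.59 on the log2 scale in *pif4-2* against Col-0 (SE 0.15, limma with Benjamini-Hochberg, adjusted p = 0.000317) and was 1.82 higher in *bbx11-1* than in *pif4-2* (adjusted p = 0.000293), a contrast in which 1.42% of all tested genes were higher. It was the only 1 of the 8 called in *pif4-2* against Col-0, where 4.84% of all tested genes were. In *bbx11-1* against Col-0, 0 of the 8 were called (0.443% of all tested genes), and 2 had an unadjusted p under 0.05 (10.7%). *EBF2*, an F-box gene of ethylene signalling, was at 40.1 to 43.6 FPKM in Col-0, 51.4 to 53.7 in *bbx11-1* and 33.6 to 39.8 in *pif4-2*, and was 0.53 higher on the log2 scale in *bbx11-1* than in *pif4-2* (adjusted p = 0.00518). Its exons overlap genes on the opposite strand. The MYB genes *PAP1* and *PAP2* and *BBX10* were too low to test, as was *PIL1*, a bHLH gene, which was at 0.62 to 1.01 FPKM in Col-0, 0.60 to 1.06 in *bbx11-1* and 0.10 to 0.21 in *pif4-2*. *PAP1* was at 0.74 to 1.1 FPKM in Col-0, 0.35 to 0.67 in *bbx11-1* and 0.29 to 0.74 in *pif4-2*.

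**Figure D5:**
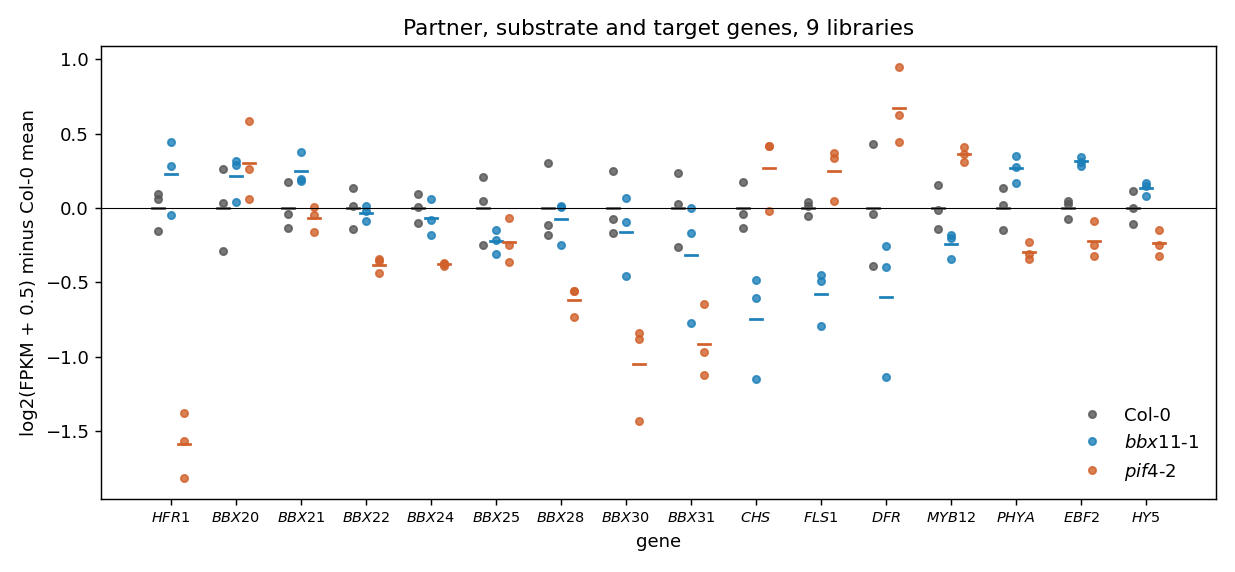
Log2(FPKM + 0.5) minus the Col-0 mean for the called substrates, photoreceptor, B-box partners and HY5 targets, other B-box partners and *HY5*, with 1 point per library and a bar at each mean (n = 3). *HFR1* and 5 B-box genes lie below Col-0 in all *pif4-2* libraries, and *CHS*, *FLS1*, *DFR* and *MYB12* lie lower in *bbx11-1* than in *pif4-2*.

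The B-box partners of HY5 and COP1 held the most calls. This list was chosen with earlier results of these data known, so its shares are a description. Of 9 genes, 8 were tested and *BBX23* was listed at 0 in all 9 libraries. In *pif4-2* against Col-0, 5 of the 8 fell, as 1.95% of all tested genes did, and 0 rose: *BBX30* by 1.05 on the log2 scale, *BBX31* by 0.91, *BBX28* by 0.62, *BBX22* by 0.38 and *BBX24* by 0.38 (limma with Benjamini-Hochberg, adjusted p = 0.00921, 0.0245, 0.0184, 0.0240 and 0.0196). The median log2 difference of the 8 was -0.38, beside -0.02 over all tested genes. BBX22 is known as a positive cofactor of HY5, whereas BBX24, BBX28, BBX30 and BBX31 are known as repressors of photomorphogenesis in visible light. *BBX30*, which encodes a microProtein, was at 5.15, 6.56 and 4.79 FPKM in Col-0, 5.07, 5.74 and 3.83 FPKM in *bbx11-1* and 2.83, 1.70 and 2.73 FPKM in *pif4-2*. No *pif4-2* value of *BBX30* reached the other 2 genotypes. *BBX24* ranged from 94.3 to 108 FPKM in Col-0 and from 76.9 to 78.2 FPKM in *pif4-2*, and its exons overlap a gene on the opposite strand. In this comparison the call of *BBX30* held without each library in turn, and the others were lost without some. *BBX22* was lost without any *pif4-2* library or Col-0 replicate 1 or 2 (adjusted p = 0.0571 to 0.116) and *BBX24* without any *pif4-2* library or Col-0 replicate 2 or 3 (0.0558 to 0.0894). *BBX28* was lost without any *pif4-2* library (0.0536 to 0.0865) and *BBX31* without replicate 1 or 2 of Col-0 or of *pif4-2* (0.0719 to 0.110) or without replicate 1 of both Col-0 and *bbx11-1* (0.0506). Between the mutants, *BBX30* was 0.89 higher on the log2 scale in *bbx11-1* than in *pif4-2* (limma with Benjamini-Hochberg, adjusted p = 0.0372). It was the only 1 of the 8 called, where 2.32% of all tested genes were. That call was lost without any *pif4-2* library, *bbx11-1* replicate 1 or 2 or Col-0 replicate 3 (0.0537 to 0.123), and without replicate 1 of both Col-0 and *bbx11-1* (0.0538). It was also lost with no filter, either rescaling or no intensity trend (0.0566 to 0.112). Between the mutants, 6 of the 8 had an unadjusted p under 0.05 (limma), against 14.9% of all tested genes. For 5 of the 8, each *bbx11-1* value exceeded each *pif4-2* value (13.5% of all tested genes). The 8 had a median log2 difference of 0.33, beside 0.02 over all tested genes. *BBX28*, *BBX22* and *BBX24* were at adjusted p = 0.0554, 0.0589 and 0.0778 (limma with Benjamini-Hochberg). In *bbx11-1* against Col-0, 0 of the 8 were called (0.443% of all tested genes) and 1 had an unadjusted p under 0.05 (10.7%), with *BBX21*, another positive cofactor, at 31.5, 33.7 and 39.2 FPKM in Col-0 and 39.4, 39.8 and 45.1 FPKM in *bbx11-1*.

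Of 24 genes described as bound or controlled by HY5, 22 were tested, and 0 were called in either comparison with Col-0, where 0.443% (*bbx11-1*) and 4.84% (*pif4-2*) of all tested genes were. In each, 8 of 22 had an unadjusted p under 0.05, against 10.7% and 16.6% of all tested genes. In *bbx11-1* against *pif4-2*, 4 of 22 were called, all lower in *bbx11-1*, as were 0.902% of all tested genes. *CHS*, the chalcone synthase at the entry of flavonoid synthesis, was at 62.3, 66.3 and 77.3 FPKM in Col-0, 44.8, 48.6 and 30.6 FPKM in *bbx11-1* and 91.3, 67.2 and 91.5 FPKM in *pif4-2*. *CHS* was lowest in the 3 *bbx11-1* libraries, and Col-0 and *pif4-2* overlapped. The exons of *CHS* overlap a gene on the opposite strand. The log2 difference between *bbx11-1* and *pif4-2* was -1.02 for *CHS*, -1.27 for *DFR*, which reduces dihydroflavonols, -0.83 for *FLS1*, the flavonol synthase, and -0.60 for *MYB12*, an activator of flavonol genes (limma with Benjamini-Hochberg, adjusted p = 0.0120, 0.0238, 0.00373 and 0.0258). In the same contrast *HY5* was higher in *bbx11-1*, so transcripts of these 4 genes and of *HY5* differed in opposite directions. This does not hold for all 22. Each *bbx11-1* value was below each *pif4-2* value for 9 of them, a share not computed over all tested genes. It was above for 2, where 13.5% of all tested genes were. These were *IAA7* and *SIG5* (log2 difference 0.38 and 0.30), neither of them called in the main fit. The call of *FLS1* held without each library in turn, whereas *CHS* was lost without *pif4-2* replicate 1 or 3 (adjusted p = 0.0649 and 0.0650), *DFR* without *bbx11-1* replicate 3 or any *pif4-2* library (0.0502 to 0.110) and *MYB12* without any library of either mutant (0.0588 to 0.121).

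The genes whose profile over the 9 libraries was most like that of *HY5* among 17707 genes were AT3G17365 (Pearson r = 0.97 over 9 libraries), which encodes a methyltransferase-like protein, AT3G27997 (0.97), AT5G22794 (0.96), the cytochrome P450 gene *CYP72A13* (0.95) and AT2G16990 (0.95), a major facilitator gene. Among those most like *COP1* were *ABIL3* (0.95), AT2G41800 (0.93), *UBC19* (0.91), a ubiquitin-conjugating enzyme gene, and *ADT1* (0.91). The 9 points are 3 replicates of each of 3 genotypes, and the values are a description, the highest of many.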

How the data were processed

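Total RNA came from whole seedlings (3 biological replicates of Col-0, *bbx11-1* and *pif4-2*), and poly(A) RNA was sequenced. The study's text and the labels name different Illumina sequencers (HiSeq and NovaSeq). The authors mapped reads to TAIR10 with Hisat2 (version 2.05) and counted reads per gene with HTSeq. The deposited values are FPKM, 1 per gene and library. How FPKM, gene lengths and strand were set is not given in the sources used here. The authors' own comparisons, per their processing notes, used edgeR 3.0.8, and their methods give a later version of that tool.

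Here log2(FPKM + 0.5) was modelled with limma 3.58.1 in R 4.3.3 (lmFit, eBayes with intensity trend), all 9 libraries in 1 fit with 6 residual degrees of freedom. Testing was limited to the 19169 genes whose average reached 1 FPKM in any genotype. Calls were made at a Benjamini-Hochberg adjusted p below 0.05, with a fold of at least 2 as a second rule. The p-values measure the spread between these replicates. No 2 libraries held identical values (0 pairs). The fit was run on simulated data for *pif4-2* against Col-0 only, with independent values and no replicate effect. That run says nothing about the comparisons with *bbx11-1*, and no result here rests on it.

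Members, gene lists and tests were chosen with earlier results of these data known. All 9 members were named with every value, the mutated genes, every called gene of the pathway lists and some of their other genes, and the 5 genes most like *HY5* and *COP1* by Pearson r among those with a mean log2 value of at least 1. Those other genes were not picked by a single rule, and not all are among the most highly expressed of their list. For *COP1*, the first of the 5 is not reported here.

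Depth was read from low values of short genes, of which 69.8% to 75.5% lay no more than 0.1 from a whole read count (20% by chance). The read number of single genes was not used. The TAIR10.1 annotation matched 32835 of 33602 identifiers, and sequences are from RefSeq TAIR10.1.

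Replicate numbers come from the labels. Deviations of same-numbered libraries from their genotype means correlated at 0.275 to 0.549 for *bbx11-1* with Col-0. Libraries of different number were at -0.41 to 0.20 there, highest for *bbx11-1* replicate 2 with Col-0 replicate 3. Deviations cancel out within a genotype, so low values for different numbers follow in part from high values for the same number. Replicate 1 stood apart in both genotypes, so the pairing of replicates 2 and 3 is less clear. Same-numbered libraries were at 0.022 to 0.072 for *pif4-2* with Col-0 and -0.008 to 0.092 for *bbx11-1* with *pif4-2*, which share only a number. The fits reported have no block, and those with replicate number as a block are an alternative. Other alternatives were pseudocounts of 0.1 and 1, other filters, median-of-ratios and quantile scaling, no intensity trend, only the genotypes compared, nuclear genes only, and leaving out each library. Python 3.11.15, pandas 2.3.3, pysam 0.24.0 and matplotlib 3.10.9 were used for summaries, sequences and figures.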

Additional observations from a re-analysis of the deposited data

How the results depend on the processing

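The 24 differences of the 8 tested regulators (limma, Benjamini-Hochberg) were examined under 21 alternatives, giving 504 values, of which 464 kept direction and side of the threshold. Of the rest, 12 lost the call of *HY5* between the mutants, and 28 changed sign, none with an adjusted p below 0.779. The share kept overstates stability. Only *HY5* between the mutants had a call to lose, and the fold rule reuses the same fit. The log2 difference cannot move with other filters, no intensity trend, the replicate block, nuclear genes only or only the genotypes compared. It also cannot move when a library of the third genotype is left out. The 1 member called between *bbx11-1* and *pif4-2* became 0 with no filter, median-of-ratios scaling, quantile normalization, no intensity trend or a fold of at least 2, and 0 to 1 when single libraries were left out. The count of all called genes moved more. For *bbx11-1* against Col-0 (85) it was 21 with no filter, 26 without trend, 9 with only the genotypes compared, 28 at a fold of at least 2, 155 with the replicate block and 21 to 117 without single libraries. For *pif4-2* against Col-0 (927) it was 217 at a fold of at least 2 and 472 to 1031 without single libraries. For *bbx11-1* against *pif4-2* (445) it was 218 with no filter, 122 at a fold of at least 2, 793 with the replicate block, 155 to 659 without single libraries and 903 without replicate 1 of Col-0 and of *bbx11-1*, an alternative chosen after seeing the data. That alternative also turned the sign of *SPA4* (-0.029), *HYH* (-0.092) and *PIF4* (0.045) in *bbx11-1* and of *SPA1* (-0.027) and *SPA2* (0.046) in *pif4-2* against Col-0. Quantile normalization turned *SPA1* (-0.016) and *SPA2* (0.020) and median-of-ratios scaling *SPA2* (0.018) in *pif4-2*. Leaving out single libraries gave log2 ranges across 0 in *bbx11-1* for *COP1* (-0.088 to 0.015), *SPA3* (-0.12 to 0.078), *SPA4* (-0.0097 to 0.17), *HYH* (-0.036 to 0.13), *PIF4* (-0.14 to 0.081), *BBX22* (-0.11 to 0.034) and *BBX28* (-0.17 to 0.074). In *pif4-2* the same holds for *COP1* (-0.015 to 0.088), *SPA1* (-0.029 to 0.089), *SPA2* (-0.13 to 0.077), *SPA4* (-0.12 to 0.057), *HYH* (-0.14 to 0.066) and *BBX11* (-1.11 to 0.027), and between the mutants for *HYH* (-0.0071 to 0.19). The cause of these moves was not tested. Among the partners, the calls of *BBX22* and *BBX24* in *pif4-2* were lost with median-of-ratios scaling, and those of *BBX28*, *BBX31*, *CHS*, *DFR* and *MYB12* with no filter. With the replicate block *BBX21*, *BBX22*, *BBX24*, *BBX28*, *EBF1* and *IAA7* were also called between the mutants (adjusted p = 0.0286, 0.0485, 0.0390, 0.0409, 0.0471 and 0.0434, limma, Benjamini-Hochberg). *PHYA* and *IAA7* were also called in *pif4-2* against Col-0 (0.0315 and 0.0416). No listed call was lost, and *HY5* between the mutants was at 0.0231. The *pif4-2* libraries share only a number with the others, so the block has no known basis for that genotype in these comparisons. Reads per gene were not used here, so counting error was not modelled, and a fall of *LAF1*, which lies at or below 0.59 FPKM, would be hard to detect.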
